A study of Mus musculus with 28 samples.

Results

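Regions that opened late in reprogramming were those called as open in 0 of 4 fibroblast libraries, at most 4 of 12 day 5 libraries and at least 8 of 12 day 10 libraries. They numbered 580 of the 172177 regions obtained by merging all deposited ATAC-seq peaks, which is 0.337%. A region here is a stretch of chromosomes 1 to 19 or X covered by overlapping peaks, and a library calls it when at least 1 of its peaks overlaps it. The regions were chosen by these calls of the same libraries, so the difference between days in the calls of the 580 regions is a description and was not tested. The regions are given by their positions in the mouse build mm9. Genes beside them were not assigned, because no annotation of that build was used here.

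Opening of chromatin is an early requirement for a silent regulatory element to become active. In induced pluripotency, OCT4, KLF4, SOX2 and MYC (OKSM) are forced into somatic cells. There OCT4, SOX2 and KLF4 can bind closed as well as open chromatin. The fibroblast programme is lost first, and much of the stable pluripotency network is switched on late, in the minority of cells that progress. TET enzymes oxidise 5-methylcytosine stepwise, first to 5-hydroxymethylcytosine and then to further products that can be removed by base excision repair. DNA methylation at enhancers and promoters is one of the barriers to the late steps.

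ATAC-seq, in which a transposase inserts adapters into accessible DNA, was run on 28 libraries of cells derived from mouse embryonic fibroblasts (MEFs) taken at embryonic day 12.5, with the strain background given in the labels as V6.5 129XBI/6. According to the series design, every group was Tet2-/- and carried doxycycline-inducible OKSM with rtTA. The 7 groups of 4 libraries were untreated MEFs, and Tet2-E, Tet2-WT and empty vector (pMXs) cells at day 5 and at day 10 of reprogramming. Tet2-E is a mutant that the series calls stalling, and the Tet2 proteins were delivered by retrovirus. Transduced cells were grown on mitomycin-treated MEF feeders in medium with 2i, LIF and doxycycline, and sorted by flow cytometry on SSEA1-RFP. No sorting is named for the MEFs. The effects of sorting, feeders, transduction and medium thus cannot be told apart from the passage from MEFs to later days. In a bulk library, a smaller share of cells with an open region and a weaker opening in every cell cannot be told apart.

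The deposited lists held 41345 to 72140 peaks per MEF library, 41414 to 60154 per day 5 library and 27809 to 50552 per day 10 library on the chromosomes used. Read totals were not used here. The background pileup, the expected number of fragments at a position of the genome as inferred from the peak lists, was 0.394 to 0.66 in MEFs, 0.746 to 1.04 at day 5 and 0.361 to 0.768 at day 10. By this measure most day 10 libraries were shallower than the day 5 libraries. Whether replicates of a group came from separate cultures or animals is not in the labels, and each p-value below refers only to the variation among libraries, part of which may be technical.

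The limits of the rule lie within a continuous range of call counts. Among the 7291 regions called in 0 MEF and at least 8 day 10 libraries, 4263 were called in all 12 day 5 libraries, and 7.96% were late-opening. Of the 580 late-opening regions, 139 were called in 0 day 5 libraries, 94 in 1, 97 in 2, 97 in 3 and 153 in 4. Just outside the limit, 137 regions were called in 5 day 5 libraries. Along the other axis, 221 late-opening regions were called in 8 day 10 libraries, 136 in 9, 121 in 10, 62 in 11 and 40 in all 12, while 313 regions lay just outside at 7. The median width was 315 bp at 8 day 10 libraries and 289 bp at 7, and the median fold of their day 10 peaks was 6.11 and 6.14. At the day 5 limit, the median width was 347 bp at 4 libraries and 356 bp at 5, with median folds of 6.40 and 6.44. The fold is the authors' value for a peak, the ratio of its summit over the local background of its own library. Without 1 day 10 library, requiring 8 of the remaining 11, the count of late-opening regions was 374 when Tet2-E replicate 1 was left out, 386 without Tet2-E replicate 2 and 379 without Tet2-WT replicate 2.

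**Figure D1:**
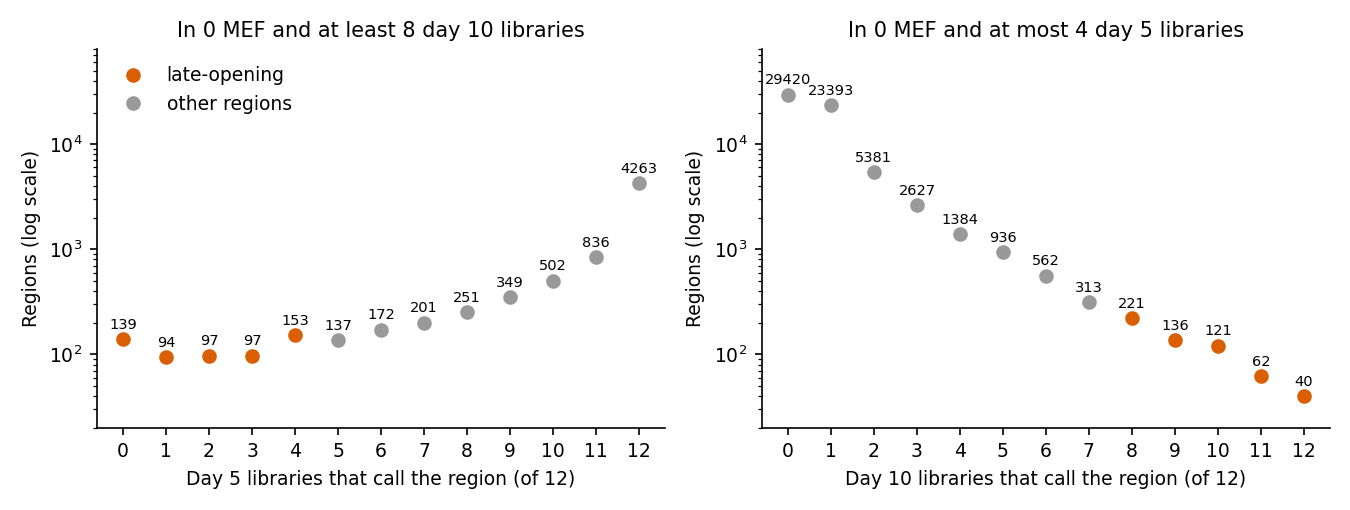
Number of regions (log scale) by the number of day 5 libraries that call them, among regions in 0 MEF and at least 8 day 10 libraries (left), and by the number of day 10 libraries, among regions in 0 MEF and at most 4 day 5 libraries (right). Late-opening regions (orange) join the other regions (grey) without a gap, with 153 and 137 regions on the 2 sides of the day 5 limit and 313 and 221 on the 2 sides of the day 10 limit.

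Libraries of one group differed widely in how many late-opening regions they called. At day 5, the Tet2-E libraries called 19.14%, 31.6%, 12.6% and 7.93% of the 580 regions in replicates 1 to 4. The Tet2-WT libraries called 23.1%, 19.8%, 9.66% and 25.2%, and the empty vector libraries 12.2%, 17.9%, 17.8% and 8.45%. Tet2-E replicate 2 was the day 5 library with the most calls, and 21 of the 94 regions called in a single day 5 library were called there. At day 10, the Tet2-E libraries called 95.9%, 92.6%, 58.1% and 55.7%. The Tet2-WT libraries called 90.9%, 94.8%, 78.6% and 64.1%, and the empty vector libraries 86.0%, 79.0%, 77.1% and 52.1%. In each vector the day 10 libraries numbered 1 and 2 lay above those numbered 3 and 4. Of the late-opening regions, 303 (52.2%) were called in all 6 day 10 libraries numbered 1 or 2, and 51 (8.79%) in all 6 numbered 3 or 4. The numbers come from the labels, which tie them to no batch.

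**Figure D2:**
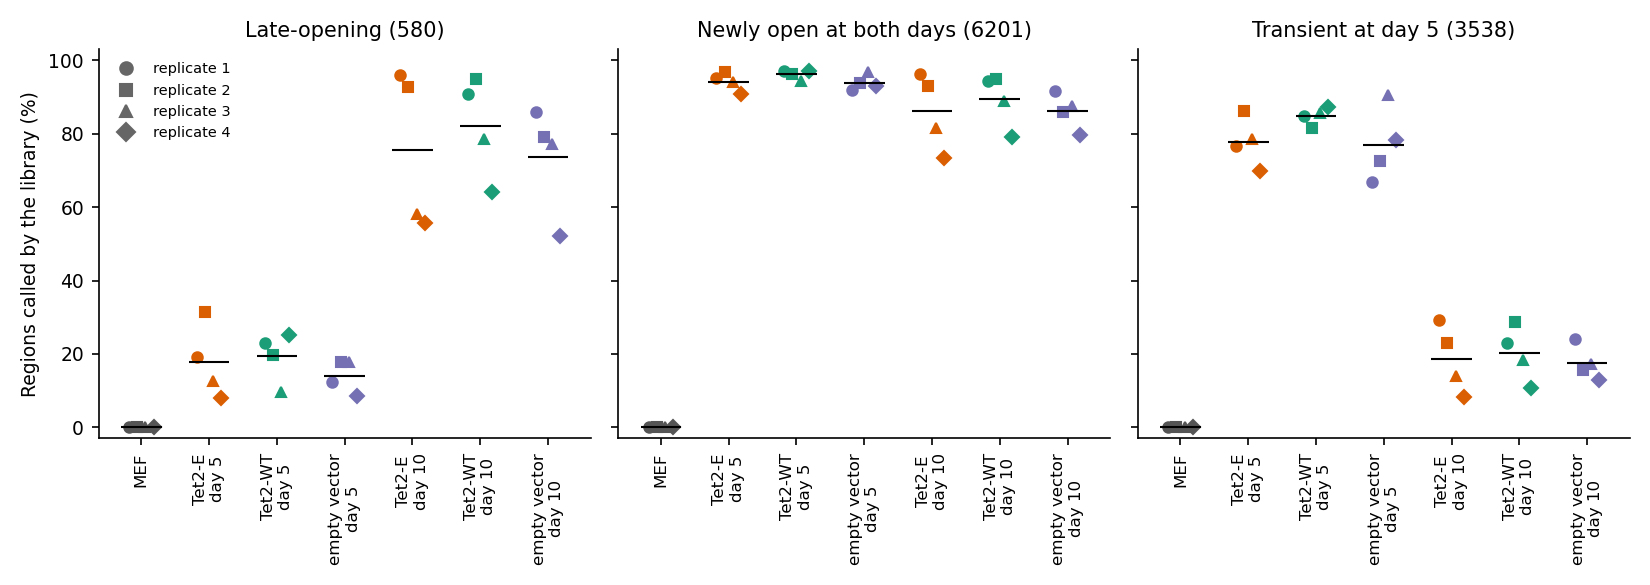
Share of regions called by each library (%), for the late-opening regions, the regions newly open at both later days and the regions open transiently at day 5; symbols are replicates 1 to 4, and lines are group means. Late-opening regions are called in 7.93% to 31.6% per day 5 library and 52.1% to 95.9% per day 10 library, a pattern fixed by the rule, with replicates 3 and 4 low at day 10.

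To measure late opening in libraries that did not choose the regions, the rule was applied to the MEFs and to the other 2 vectors only (0 of 4 MEF, at most 2 of 8 day 5 and at least 6 of 8 day 10 libraries). The boundaries of the regions still came from the peaks of all 28 libraries. The 3 choices shared libraries, and 79.3% to 87.7% of the regions chosen were among the 580, so the 3 comparisons are not independent. For Tet2-E, the 390 regions chosen in this way were called in 90.0%, 85.6%, 52.1% and 48.5% by its day 10 libraries, against 21.5%, 36.7%, 16.4% and 10.8% by its day 5 libraries. For Tet2-WT, 358 regions were called in 82.7%, 88.8%, 70.1% and 55.6% at day 10, against 27.7%, 24.0%, 14.2% and 29.3% at day 5. For the empty vector, 421 regions were called in 73.4%, 67.9%, 66.0% and 41.8% at day 10, against 16.4%, 19.5%, 21.9% and 12.8% at day 5. In no vector did the day 10 and day 5 libraries overlap.

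The day 10 mean was 69.0% ± 21.8 and the day 5 mean 21.3% ± 11.1 for Tet2-E (SD, n = 4 each), a difference of 47.7 percentage points. Tet2-WT cells had means of 74.3% ± 14.7 at day 10 and 23.8% ± 6.75 for day 5 libraries (SD, n = 4 each), a difference of 50.5 points. Empty vector cells had means of 62.3% ± 14.01 at day 10 and 17.6% ± 3.91 for day 5 libraries (SD, n = 4 each), a difference of 44.7 points. Each difference passed a 2-sided exact permutation test (p = 0.0286, the smallest that 4 against 4 libraries allow, adjusted p = 0.0286 over the 3 vectors). In the libraries numbered 1 and 2 the differences were 58.7, 59.9 and 52.7 points for Tet2-E, Tet2-WT and the empty vector, and in those numbered 3 and 4 they were 36.7, 41.1 and 36.6 points. Where peaks had to cover at least 50% of a region, the Tet2-E difference was 44.0 points and no longer passed (exact permutation, adjusted p = 0.0571). Day 10 lists were on average shorter than day 5 lists in each vector, with 36801 against 48180 peaks in Tet2-E, 39595 against 52139 in Tet2-WT and 36570 against 49173 in empty vector cells.

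**Figure D3:**
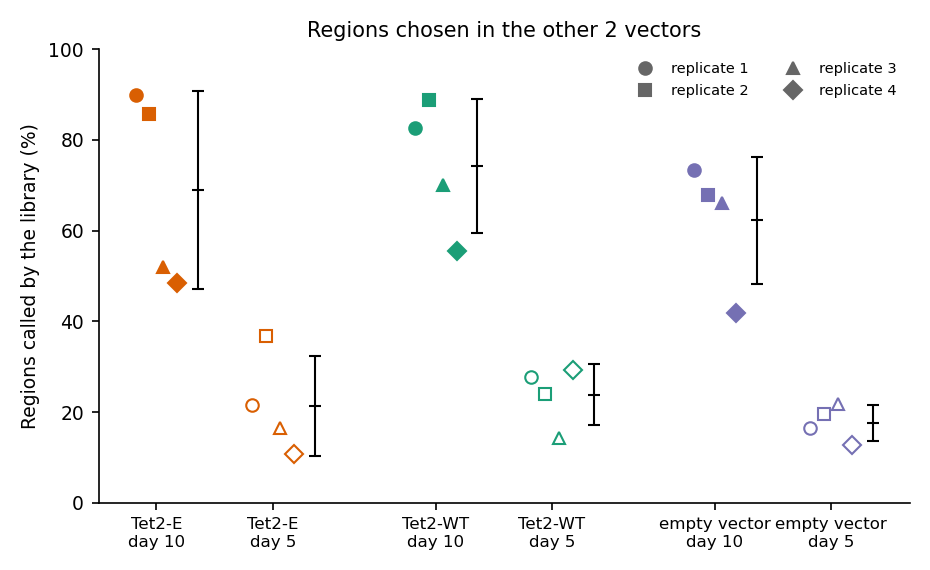
Share of regions called by each library (%) in the vector that took no part in choosing them, at day 10 (filled) and day 5 (open); symbols are replicates 1 to 4, and bars show mean ± SD. In each vector the 4 day 10 libraries lie above the 4 day 5 libraries, with means of 69.0% against 21.3% in Tet2-E, 74.3% against 23.8% in Tet2-WT and 62.3% against 17.6% with the empty vector.

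The comparison of vectors asks whether wild-type or stalling Tet2 changed how many of the late-opening regions were open at day 10. The share called was 75.6% ± 21.6 with Tet2-E, 82.1% ± 13.8 with Tet2-WT and 73.5% ± 14.8 with the empty vector (SD, n = 4 each). The differences were smaller than these spreads. Tet2-E exceeded the empty vector by 2.03 percentage points (2-sided exact permutation p = 0.914, adjusted p = 0.914), and Tet2-WT exceeded it by 8.58 points (exact permutation p = 0.457, adjusted p = 0.914). The difference of Tet2-E minus Tet2-WT was -6.55 points (exact permutation p = 0.629, adjusted p = 0.914). Tet2-E lay 11.7 points above the empty vector in the libraries numbered 1 and 2, and the difference was -7.67 points in those numbered 3 and 4. These p-values do not show that the vectors act alike. The rule also bounds these differences, since a region called in at least 8 of 12 day 10 libraries must be open with at least 2 of the 3 vectors, and regions open with 1 vector only cannot be among the 580.

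Single regions were also compared by their calls. No late-opening region was called in all 4 day 10 libraries of one vector and none of another (0 of 580), where 0.0431% of all 23187 regions in at least 8 day 10 libraries were. A gap of at least 3 of 4 libraries was found for 6 late-opening regions called more often with Tet2-E than with the empty vector (1.03%, against 0.582% of all 23187) and for 6 called less often (1.03%, against 0.492%). For Tet2-WT and the empty vector, 18 regions were called more often with Tet2-WT (3.10%, against 0.733%) and 3 less often (0.517%, against 0.358%). For Tet2-E and Tet2-WT, 4 were called more often with Tet2-E (0.690%, against 0.298%) and 7 less often (1.21%, against 0.612%). These counts had no test, and Tet2-WT libraries also had the longest lists on average. Among regions in at least 8 day 10 libraries, a gap of at least 3 is possible only where 8 or 9 of 12 call the region. A gap of 4 against 0 is possible only at 8. Of the late-opening regions, 221 were called in 8 and 136 in 9. The 23187 regions were not split in this way, so the paired shares cannot be read as an excess or a lack. Among the 18, the highest median folds belonged to chrX:148721940-148722175 (7.24), chr18:25735890-25736100 (6.87) and chr3:3666798-3667066 (6.69), which were named after their values were seen. Each was called in 4 of 4 Tet2-WT and 1 of 4 empty vector libraries at day 10. With these counts the rule requires at least 3 of 4 Tet2-E libraries, and 3 called each, so the Tet2-E count is no separate observation.

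The share of late-opening regions a day 10 library called followed the number of peaks in its list. The 4 lists of 27809 to 32575 peaks called 52.1% to 64.1% of them, the 3 lists of 36365 to 37140 peaks 77.1% to 79.0%, and the 5 lists of 40669 to 50552 peaks 86.0% to 95.9%. These are the libraries whose calls chose the regions, and the regions are part of each list, so the relation is a description and no p-value is given. The share rose with the background pileup as well, with a Spearman correlation of 0.923, against 0.916 for the number of peaks. In every one of the 12 day 10 libraries the share of late-opening regions called was below that of the 6201 regions newly open at both later days (0 of 4 MEF, at least 8 of 12 day 5 and at least 8 of 12 day 10 libraries), with differences of -27.6 to -0.0926 percentage points. The difference nearest 0 was in the longest list, that of Tet2-WT replicate 2. Late-opening regions made up 1.02% to 1.37% of the peaks of each day 10 list and 0.0987% to 0.362% of each day 5 list.

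**Figure D4:**
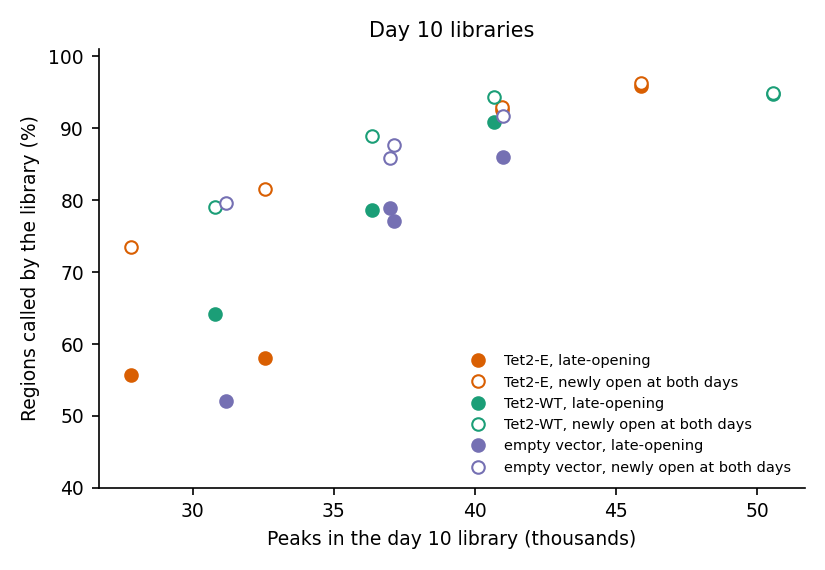
Share of regions called by each of the 12 day 10 libraries (%, axis from 40) against the number of peaks in its list, for late-opening regions (filled) and regions newly open at both later days (open), coloured by vector. Late-opening regions are called in 52.1% to 95.9% and lie below the regions newly open at both days in each library, most in the lists with the fewest peaks.

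The peaks in late-opening regions were of middling strength in the lists that held them. Their median fold was 5.99 to 6.93 per day 10 library, against 6.66 to 7.48 for regions newly open at both days, and it was lower in 12 of 12 libraries. Ranked by fold among all peaks of their own list, late-opening regions had a median percentile of 34.4 to 60.0, against 49.2 to 66.7 for regions newly open at both days. They ranked above the day 10 peaks in regions open transiently at day 5 (0 of 4 MEF, at least 8 of 12 day 5 and at most 4 of 12 day 10 libraries), whose median percentile was 26.6 to 33.7. The median pileup at their summits was 9 to 13 fragments per day 10 library, against 10 to 15 for regions newly open at both days. In the day 5 libraries that called them, late-opening regions sat lower in the list, at a median percentile of 24.8 to 33.9, against 66.4 to 73.7 for regions newly open at both days. The rule chose regions by such calls, so these values describe the set and were not tested.

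Late-opening regions were narrower than regions newly open at both days and wider than the typical region of the series. Their median width was 348 bp, with 243 bp at the 10th and 509 bp at the 90th percentile, against 475 bp for regions newly open at both days 346 bp for regions open transiently at day 5 and 191 bp for all 172177 regions. Width also depends on how many lists add to a region, and the median rose with the number of calling libraries, reaching 315 bp for late-opening regions in 8 day 10 libraries and 450.5 bp for those in 12. Within single day 10 lists, their peaks had a median width of 117 to 198 bp, against 144 to 227 bp for peaks in regions newly open at both days, and were narrower in 12 of 12 libraries. Against the median of all peaks of the same list, 135 to 169 bp, they were narrower in 6 of 12 libraries. In 5.00% of the pairs of a late-opening region and a library calling it, the library had more than 1 peak there. The summits of the day 10 libraries spanned a median of 169 bp within a late-opening region, against 182 bp in a region newly open at both days.

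Complete late opening, in 0 of 12 day 5 and 12 of 12 day 10 libraries, was found at 8 of the 580 regions. The same calls were met by 0.00819% of the 109954 regions called in at least 2 libraries, and this contrast is the one the rule used. The highest median fold among them was 7.92, at chr4:136720802-136721350. This region, 549 bp wide, had folds of 6.72, 7.98, 6.47 and 7.89 in the Tet2-E, 7.56, 8.20, 8.80 and 4.82 in the Tet2-WT and 10.7, 9.87, 7.90 and 7.95 in the empty vector libraries at day 10. The values overlap between vectors, and the lowest, in Tet2-WT replicate 4, had a summit of 8 fragments and ranked at the 5.69th percentile of its list.

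The other complete regions had lower medians and similarly wide ranges over the 12 day 10 libraries. Folds at chr8:86281010-86281453 were 4.49 at the lowest, 7.55 at the median and 8.86 at the highest. On chromosome 13, the region chr13:91008823-91009160 had 4.60, 7.40 and 10.4, and chr13:38236888-38237352 had 5.55, 7.20 and 10.2. At chr13:38236888-38237352 the folds were 7.27, 5.55, 7.12 and 6.42 in Tet2-E, 8.59, 6.54, 6.02 and 6.87 in Tet2-WT and 9.20, 10.2, 8.21 and 9.30 in empty vector libraries. The Tet2-E and empty vector libraries did not overlap there, the only one of the 8 complete regions where these groups were apart, and the difference was not tested because the fold is set against each library's own background. The region chr9:108198948-108199247 had 5.05, 7.05 and 9.32. On chromosome 19, chr19:4719327-4719755 had 6.08, 6.99 and 12.9, and chr19:56989577-56989944 had 5.41, 6.89 and 12.1. The narrowest, chr15:5966629-5966847 with 219 bp, had 5.40, 6.92 and 10.0. Their summits spanned 99 bp (chromosome 15) to 259 bp (chr19:4719327-4719755) across the day 10 libraries.

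**Figure D5:**
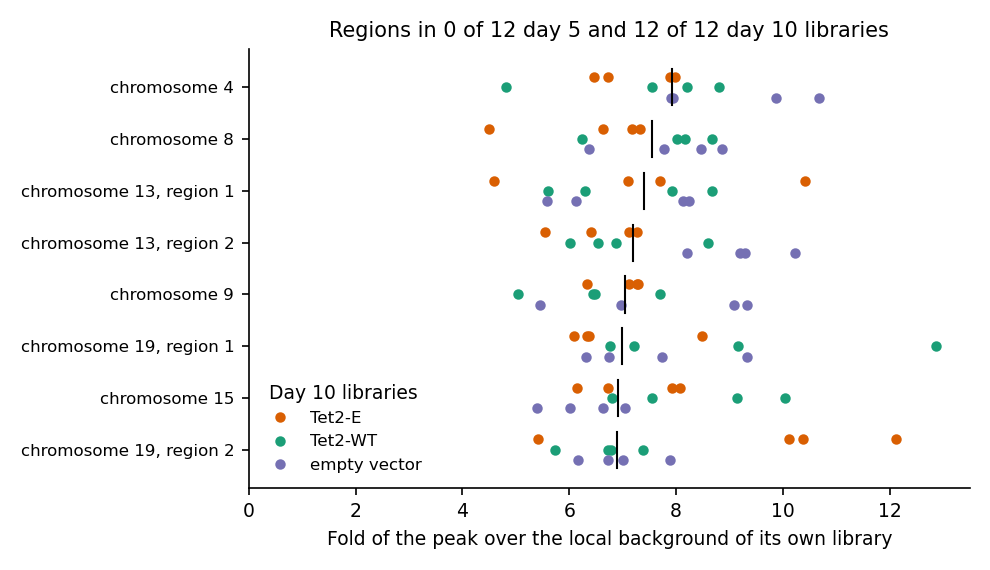
Fold of the day 10 peaks over the local background of their own library, for the 8 regions in 0 of 12 day 5 and 12 of 12 day 10 libraries, from the highest median (top, 7.92) to the lowest (6.89); each point is 1 library, coloured by vector, and the black line is the median of 12. Folds range from 4.49 to 12.9, and at chr13:38236888-38237352 (shown as chromosome 13, region 2) the Tet2-E libraries lie below the empty vector libraries.

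Of the 10 late-opening regions with the highest median fold over day 10 libraries, named after their values were seen, 9 were called in 1 to 3 day 5 libraries and 1 in 0, while of all 580 regions 139 were called in 0. The highest was chr2:128091101-128091575, with a median fold of 10.4 and a range of 7.31 to 12.4 over 12 libraries, at a median rank at the 92.0th percentile of the lists. It was called in 1 day 5 library, Tet2-E replicate 2, with a fold of 7.82 there. Next came chr7:30051899-30052373 (median fold 10.4, called in 1 day 5 library), chr18:11791407-11791928 (9.96, in 2) and chr2:143715730-143716142 (9.74, in 0 and in 11 day 10 libraries). Over all 580 regions the median fold ran from 4.31 to 10.4 with a median of 6.51, and the median differed little between those called in 0 day 5 libraries (6.50) and those called in 4 (6.41). It was 6.21 for late-opening regions in 8 day 10 libraries and 7.55 for those in 12.

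Most late-opening regions were alone in their 100 kb window, and no other set was counted in this way for comparison. Of the windows with any late-opening region, 551 held 1, 13 held 2 and 1 held 3. The 3 lay on chromosome 5, at chr5:118803139-118803357, chr5:118884846-118885278 and chr5:118886564-118887004, and were called in 10, 9 and 8 day 10 libraries. Another late-opening region lay within 10 kb of 8 of the 580 (1.38%), and a late-opening region lay within 10 kb of 0.836% of the 109954 regions called in at least 2 libraries. The 8 formed 4 pairs, and the strongest was on chromosome 13, where the complete region chr13:91008823-91009160 was followed after 2067 bp by chr13:91011228-91011555 (median fold 9.27, called in 1 day 5 and 11 day 10 libraries). The 3 widest were chr10:62275269-62276136 (868 bp), chr15:74017396-74018190 (795 bp) and chr2:28462624-28463368 (745 bp). Each chromosome held from 1.90% (X) to 7.41% (2 and 4 alike) of them, and the shares differed from those of all regions by -1.15 percentage points (chromosome 12) to 1.18 points (chromosome 4).

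The neighbours of late-opening regions were counted against those of other regions. A region newly open at both days lay within 10 kb of 10.2% of late-opening regions, against 8.25% of the 109954 regions called in at least 2 libraries. The share was 10.5% for regions newly open at both days and 9.75% for regions transient at day 5. A region open in all 28 libraries lay within 10 kb of 13.1% of late-opening regions, against 9.52%, 8.95% and 8.59% in the same order. For a neighbour called in all MEF and no later library the share was 4.83%, against 7.31%, 7.47% and 7.24%. For a neighbour transient at day 5 it was 4.31%, against 4.69%, 5.64% and 6.36%. These shares had no test, and the sets differ in width and chromosome.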

How the data were processed

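Each library had its own deposited peak list. Per the submitters' processing notes, Bowtie2, SAMtools, bedtools and MACS2 were used with the build mm9. For tool versions, peak-calling settings and any cut-site shift, nothing is given in the sources used here. The deposited lists give a fold (ratio) of each summit over its local background, a −log10 p and −log10 q, a score that is the authors' −log10 q times 10, and the summit position. The lowest deposited −log10 q was 2, a q of 0.01. Peaks on 20 chromosomes were merged where they shared at least 1 bp, and peaks on unplaced sequences and Y were left out. The deposited fold was used only within a list or to describe a region. From fold and p, whole-number pileups were found for 100% of peaks in each library (tolerance 0.0002 in −log10 p), and the commonest background value was taken as relative depth; it depends on a fragment length setting that is not given. No list was identical to another.

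The regions, the comparison sets and the tests were chosen with earlier results of these data known. Each library's share of called regions entered 2-sided exact permutation tests with Benjamini-Hochberg adjustment over 3 contrasts (threshold 0.05). Named regions were up to 25 complete regions by median fold (8 existed), regions found with one vector in all its libraries but never with another (none), the 5 windows of 100 kb with most members (1 held 3; the other places were tied among 13 windows holding 2, which were left unnamed) and the 3 widest; others are marked as chosen after their values were seen. Gene and sequence context was not analysed here. On simulated lists with 5000 well-separated regions, the code recovered all 204 regions that met the rule. The peaks of each simulated region overlapped by design, so this checks the code only and not the calling of real peaks. Python 3.11.15, NumPy 2.4.6, pandas 2.3.3 and SciPy 1.17.1 were used. Alternatives were another number of peaks per list, a stricter q, 50% coverage, regions from summits, other limits of the rule and left-out libraries.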

Additional observations from a re-analysis of the deposited data

Results flagged for a closer look

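The share of late-opening regions among the peaks of a list was low in 1 of the 4 Tet2-WT libraries at day 5. In replicate 3 it was 0.100%, and in the others it was 0.276%, 0.246% and 0.265%. The gap to the nearest of the others was 0.830 of the group's range, just above the limit of Dixon's test for 4 libraries, and chance alone flags about 1 in 20 groups.

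Peaks on unplaced sequences and the Y chromosome were outside the main measurement. They merged into 664 regions, of which 1 was called in 0 MEF, at most 4 day 5 and at least 8 day 10 libraries.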

How the results depend on the processing

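The number of late-opening regions, 580 in the deposited lists, followed the rule and the peaks. It was 176 where peaks had to cover at least 50% of a region, 8 with 0 of 12 day 5 and 12 of 12 day 10 libraries, and 1123 with at most 5 day 5 and at least 7 day 10 libraries. With every list shortened to the length of the shortest it was 845, and with a −log10 q of at least 5 it was 397. Without 1 replicate number of every group it ranged from 577 (without replicate 1) to 1025 (without replicate 4), and without a single library, added after the data were seen, from 374 (Tet2-E day 10 replicate 1) to 600 (MEF replicate 1). The count of regions in all libraries of one vector and none of another, 0 as deposited, was 4 with equal numbers of peaks, 4 with the stricter q, and 6 to 24 without 1 replicate number, where 3 against 3 libraries suffice.

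The difference of day 10 and day 5 in the vector left out was above 0 in all 36 values over the alternatives, from 36.6 to 87.5 points. Where peaks had to cover 50% of a region or more, the Tet2-E value was 44.0 points (exact permutation, adjusted p = 0.0571). Without 1 replicate number it was 44.5 to 53.6 for Tet2-E, 47.7 to 60.9 for Tet2-WT and 43.9 to 54.2 for the empty vector, where 3 against 3 libraries allow no exact permutation p under 0.10. In libraries numbered 1 and 2, added after the data were seen, it was 58.7, 59.9 and 52.7, and in those numbered 3 and 4 it was 36.7, 41.1 and 36.6 (exact permutation p = 0.333, the smallest possible). The replicate numbers share no stated source, and same-numbered libraries of different groups had deviations that correlated at -0.00845 to 0.0902 over regions, none above 0.1. Each library was compared with the 4 libraries of another group, of which 1 shared its number. In 27 of 48 such comparisons, a library correlated best with its own number. This held in 5 or 6 of 8 per pair between vectors at day 10. Between days it held in 6 of 8 (Tet2-E), 1 of 8 (Tet2-WT) and 3 of 8 (empty vector). This hint is not from the design. With the replicate block the differences of 47.7, 50.5 and 44.7 had an exact permutation p of 0.125, the smallest that 4 pairs allow.

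No vector contrast passed under the alternatives that keep 4 against 4 libraries without a block (lowest adjusted p = 0.6, exact permutation, equal numbers of peaks). Left-out replicates, 2 against 2 libraries and the replicate block allow no p under 0.05, so they could not pass. With the block the Tet2-WT minus empty vector difference of 8.58 points was above 0 in 4 of 4 same-numbered pairs, which gives the smallest p possible (exact permutation p = 0.125, adjusted p = 0.375). The Tet2-E minus empty vector difference changed sign to -1.28 with 50% coverage and -7.67 in libraries numbered 3 and 4, and ranged from -1.10 to 8.58 without 1 replicate number. The Tet2-E minus Tet2-WT difference was 1.38 in libraries numbered 1 and 2. The cause was not tested. Read totals were not used, and the shortest list, with 27809 peaks, called the fewest regions newly open at both days.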

Other observations

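Besides the late-opening regions, 92 regions were called in at most 4 of 12 day 5 and at least 8 of 12 day 10 libraries but also in at least 1 MEF library. Of these, 19 were called in 4 of 4 MEF libraries, so they were open in fibroblasts, rarely called at day 5 and called again at day 10. At 4 of them no day 5 library had a peak. These were chr10:72096858-72097334 and chr10:111109773-111110479, each in 10 of 12 day 10 libraries, chr7:118299966-118300628 in 9 and chr17:23831473-23831813 in 8. The median fold in MEF lists was 11.5, 14.4, 6.64 and 5.44 in the same order. They were chosen by calls in all 3 conditions after the values were seen and had no test. The day 5 and the day 10 cells alike were grown on MEF feeders and sorted, and the part of remaining feeder cells in these calls was not tested.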
